A study of Homo sapiens with 6 samples.

Results

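The m7G peaks described here are those that the authors annotated to coding sequence (CDS) or to the 3′ UTR, chosen by the class given for each peak in the knockdown m7G table. They numbered 2979 of 9450 listed peaks (31.5%), with 2784 in CDS (29.5%) and 195 in the 3′ UTR (2.06%). The other peaks were 4680 in the 5′ UTR (49.5%), 1758 in a class named only exon and 33 at a start codon. The table lists 1 peak for each gene, so a gene with a CDS peak here has no 5′ UTR peak in the table, and a share of peaks is also a share of genes. Of the genes with a CDS peak 2775 were protein coding, and of those with a 3′ UTR peak 194.

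The cells were DLD1, an established human colorectal cancer line. Cells with a stable knockdown of METTL1 by a single construct, sh2, were set beside cells carrying the control construct sh-NT, and each line gave an input library of unselected RNA and an immunoprecipitate (IP) made with an antibody to 7-methylguanosine. A pair of further RNA-seq libraries is titled S-CAFs-w13 and DLD1-W13CM. The design text speaks of DLD1 cells grown beside fibroblasts called S-CAFs or CAFs, but the title DLD1-W13CM names no co-culture. The design text speaks of replications, but every group in the labels held 1 library, so no difference between groups has a replicate check, and the intervals below cover the counting of peaks or reads only.

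7-Methylguanosine (m7G) forms the cap at the 5′ end of messenger RNA, where it recruits the nuclear cap-binding complex and the translation factor eIF4E. It also occurs inside RNA. The METTL1-WDR4 complex places it in the variable loop of many transfer RNAs and has been reported to place it within messenger RNA. A step that removes the cap before the pull-down is not described in the labels used here, and an antibody to m7G can bind either form. The part of capped fragments in the peaks was not tested.

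METTL1 itself carried a peak of the 5′ UTR class, at chr12:57772555-57772793. Its input level was 5.80 FPKM in control cells and 3.28 FPKM in knockdown cells, 1.77-fold lower (95% counting interval 1.37 to 2.29). The smallest whole read numbers that the FPKM values allow summed to 5868579 in control input and 6600634 in knockdown input. Of 10 colon epithelial markers 8 had a peak, and CDX2, KRT19 and KRT20 had it in CDS. None of 11 fibroblast, 4 leukocyte or 3 endothelial markers had one.

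Of the CDS peaks with a matched start, 236 (8.56%) began within 5 nt of it and 51.3% within 100 nt. The peaks shown next have a 5′ edge within 5 nt of a transcript start annotated in RefSeq, and their first 30 transcribed bases are given 5′ to 3′ from the GRCh38.p14 promoter table of RefSeq. Capitals mark the first ATG triplet. The CDS set was PDE12 (chr3:57556274-57556303, plus strand), COG6 (chr13:39655627-39655656, plus), ERCC4 (chr16:13920154-13920183, plus), POFUT2 (chr21:45287866-45287895, minus) and SRRD (chr22:26483877-26483906, plus).
PDE12: gcgagatctgaATGagtcaaagccggcggc
COG6: gATGcgcatgcgcggccgatttgcacatgc
ERCC4: ggaagagcttccATGgagtcagggcagccg
POFUT2: ggaagtgcgtggccgcccggggccATGgcg
SRRD: gacgtcagagaccaATGgctgcggccgcag
The 5′ UTR starts shown were chosen for having no ATG here and the CDS starts for having one, so their contrast is fixed by the choice. The 5′ UTR set was SETDB1 (chr1:150926263-150926292, plus), ITPR3 (chr6:33621322-33621351, plus) and TCF7L2 (chr10:112950247-112950276, plus).
SETDB1: agttttcgtcgcctctgaggggcgccccgc
ITPR3: agacttcctgctccttctacgctgcaggta
TCF7L2: gtcaataatctccgctcccagactactccg

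Searched on the transcribed strand in the first 50 bases, ATG was present in 104 of 194 such CDS starts (53.6%, exact interval 46.3 to 60.8). It was present in 91 of 381 such 5′ UTR starts (23.9%, 19.7 to 28.5) and in 40.2% of the 34943 starts in the table. The mean GC content of these windows was 67.3% for CDS starts and 68.3% for 5′ UTR starts. A triplet in a window is a description of the letters there, with no statement on which start codon is used. The class label itself depends on where coding sequence is annotated, so the contrast between the classes can follow in part from the labels.

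Fold enrichment, the authors' own value for each peak, sets IP over input. The labels do not say whether that value comes from control cells, knockdown cells or both. The median enrichment was 9.93 for CDS peaks (95% order-statistic interval 9.43 to 10.4) and 3.1 for 3′ UTR peaks (2.68 to 3.64). The median of 5′ UTR peaks was 14.9 (14.7 to 15.4), that of all peaks 12.4, and that of CDS and 3′ UTR peaks together 9.43. CDS peaks covered a wide range, with quartiles of 3.56 and 18.4 and a highest value of 160. Enrichment was under 3 in 21.4% of CDS peaks and 48.2% of 3′ UTR peaks, against 1.69% of 5′ UTR peaks. It reached 10 in 49.4% of CDS, 13.3% of 3′ UTR and 72.3% of 5′ UTR peaks. The classes thus overlap, and the CDS class spans both the low and the high range.

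**Figure D1:**
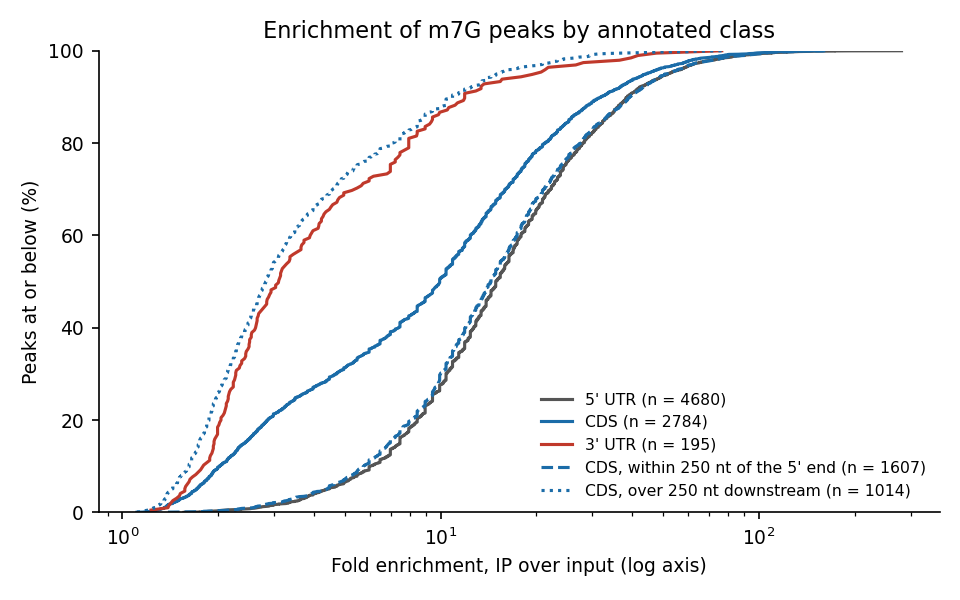
Cumulative share of peaks (y axis, percent) at or below each fold enrichment of IP over input (x axis, log scale), by annotated class, with CDS peaks also split by distance of the 5′ edge from the annotated 5′ end. The dashed curve of 1607 CDS peaks within 250 nt runs beside that of the 5′ UTR class, and the dotted curve of 1014 CDS peaks further downstream runs beside that of the 3′ UTR class.

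CDS peaks had a median width of 270 nt, summed over the exonic blocks of the peak, against 210 nt for 3′ UTR and 300 nt for 5′ UTR peaks. Of CDS peaks 34.6% lay in 1 block and 24.9% spanned at least 3, close to the 36.9% and 24.4% of 5′ UTR peaks. Of 3′ UTR peaks 80.0% lay in 1 block. Over the genome, introns included, the median span was 893 nt for CDS and 237 nt for 3′ UTR peaks. Width came in steps: 84.8% of CDS and 95.4% of 3′ UTR peaks were within 1 nt of a multiple of 30 nt. Spearman's rho between enrichment and width was 0.49 over the 2784 CDS peaks and 0.35 over the 195 3′ UTR peaks, as a description of peaks that share the same libraries.

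Position separated the CDS peaks. Distances run from the peak's 5′ edge to the nearest RefSeq start of the same gene, in genomic nucleotides with introns included, and could be given for 2756 CDS, 189 3′ UTR and 4663 5′ UTR peaks. The 5′ edge was within 250 nt of a start for 1607 CDS peaks (58.3%, exact interval 56.4 to 60.2), 7 3′ UTR peaks (3.70%, 1.5 to 7.48) and 3697 5′ UTR peaks (79.3%, 78.1 to 80.4). The 1607 CDS peaks near a start had a median enrichment of 14.4 (13.8 to 14.9) and a width of 300 nt, against 15.5 (15 to 15.9) and 300 nt for the 5′ UTR peaks near a start. The 1014 CDS peaks over 250 nt downstream had a median enrichment of 2.83 (2.70 to 2.98) and a width of 211 nt. The 173 3′ UTR peaks over 250 nt downstream had 2.84 (2.54 to 3.16) and 209 nt. Near a start the CDS median of enrichment was slightly below that of 5′ UTR peaks, with intervals that did not overlap, and downstream the CDS and 3′ UTR intervals overlapped. A further 135 CDS peaks began over 250 nt upstream of the nearest RefSeq start, with a median enrichment of 17.2.

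Enrichment was lower in each more distant group of CDS peaks. The median was 4.63 at 250 to 1000 nt (182 peaks), 3.3 at 1000 to 10000 nt (318 peaks) and 2.37 beyond 10000 nt (514 peaks), with intervals of 3.72 to 5.36, 2.97 to 3.77 and 2.25 to 2.53. 5′ UTR peaks over 250 nt downstream kept a median of 8.31 (7.45 to 8.94, 359 peaks). Of 3′ UTR peaks 83.6% were closer to the gene's annotated 3′ end than to a start, and 29.1% came within 1000 nt of that end, against 5.91% of CDS peaks. The genes of CDS peaks had a median input of 9 FPKM where the peak was near a start and 10.9 FPKM where it was further downstream.

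**Figure D2:**
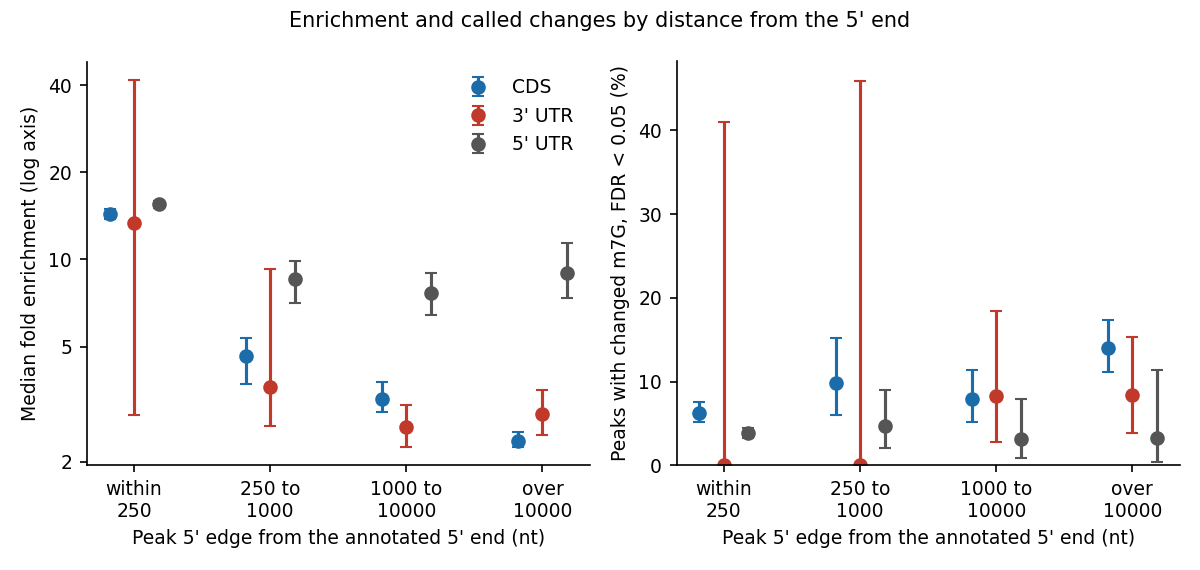
Median fold enrichment (left, log axis) and share of peaks with an m7G change at the authors' FDR under 0.05 (right, percent) by distance of the peak's 5′ edge from the annotated 5′ end, for CDS, 3′ UTR and 5′ UTR peaks, with 95% order-statistic or exact intervals over peaks. CDS medians go from 14.4 within 250 nt to 2.37 beyond 10000 nt, and the wide 3′ UTR intervals in the nearest groups rest on 7 and 6 peaks.

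The most enriched CDS peaks stood at 5′ ends. The highest values were 160 in GSR, glutathione reductase, 134 in ICMT, which methylates prenylated proteins, 131 in BNIP3L, a mitophagy receptor, and 131 in RRP1B, a nucleolar protein of ribosome production. ALG5, an enzyme of N-glycan assembly, had 123, UBR7, a ubiquitin ligase, 117, and SLC19A1, the reduced folate carrier, 114. NAT14 had 110, WRB, a receptor for tail-anchored proteins, 107, and CHMP1B of the ESCRT-III complex 106. In 8 of these 10 genes the peak began within 250 nt of a RefSeq start, and in ALG5 and SLC19A1 it began further upstream. The ICMT peak, for example, lay at chr1:6234901-6235972 in 2 blocks of 330 nt in all, and the RRP1B peak in a single block of 240 nt at chr21:43659548-43659787.

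The most enriched 3′ UTR peaks had lower values. SIRT7, a nuclear NAD-dependent deacylase, had 76.5, GOLGA1, a golgin of the trans-Golgi, 47.7, ERVK3-1 41.7, AP002990.1 39.7 and SGSM3 36.5. MICB, a stress ligand of the NKG2D receptor, had 28.1, C1QBP, a mitochondrial matrix protein, 26.6, SLC25A35 21.8, PPOX, an enzyme of haem synthesis, 21.3 and TEX264, a receptor in autophagy of the endoplasmic reticulum, 20.7. Of these 10 peaks 2 began within 250 nt of a RefSeq start, 4 began further upstream, 3 lay over 250 nt downstream and AP002990.1 had no matched start. Input was very low in some of these genes. In control and knockdown cells it was 0.092 and 0 FPKM for AP002990.1 and 0.060 and 0.090 FPKM for SGSM3. ERVK3-1 had 1.75 and 0.754 FPKM, while C1QBP had 134 and 125 FPKM. Spearman's rho between enrichment and mean input was -0.45 over 3′ UTR, -0.15 over CDS and 0.13 over 5′ UTR peaks. The SIRT7 peak spanned chr17:81917851-81921293 on the minus strand, and its 5′ edge lay upstream of the gene's bound in RefSeq. Peaks annotated to the 3′ UTR can also sit at the start of a neighbour: those of SENP3-EIF4A1 and ESYT1 lay within 250 nt of the starts of EIF4A1 and ZC3H10. Their enrichments were 17.9 and 9.93.

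The widest CDS peaks belonged to ASCL2, a transcription factor of intestinal stem cells (1285 nt), EIF5B, which joins the ribosomal subunits at initiation (1260 nt), ZCCHC3 (1198 nt), CDX2, a transcription factor of intestinal identity (1196 nt), and TRIM26 (1140 nt). Of these 5, EIF5B had a peak of 8 blocks far downstream of its start and an enrichment of 3.25, while the others had 13.1 to 22.1. In the 3′ UTR the widest were C22orf46 (2238 nt), SEC14L1 (810 nt), MAGI1 (719 nt), YJEFN3 (718 nt) and IGF2, insulin-like growth factor 2 (540 nt), with enrichments of 3.72 to 7.45 and all over 250 nt downstream.

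Gene families differed in how often their listed peak was in CDS. Among clustered histone genes, which lack introns and have short leaders, 41 of 46 peaks were in CDS (89.1%). Mitochondrial ribosomal proteins followed with 37 of 58 (63.8%), then chemokines with 4 of 7 (57.1%) and aminoacyl-tRNA synthetases with 12 of 30 (40%). C2H2 zinc finger genes had 56 of 280 in CDS (20%) and 201 in the 5′ UTR, and solute carriers 29 of 147 (19.7%). Cytosolic ribosomal proteins had 9 of 56 in CDS (16.1%) and 5 in the 3′ UTR (8.93%), with 33 in the class named exon. Translation factors (38.8%), proteasome genes (38.2%), RNA helicases (38.1%), kinesins by symbol (36%), ubiquitin ligases and peptidases (35.0%), respiratory chain genes (34.7%) and splicing factors (27.3%) lay between, beside 29.5% over all peaks. The families were limited to protein-coding genes, while the 29.5% counts peaks of every gene type, so it is not a like background. The 14 families held 325 CDS peaks (11.7% of them) and 18 3′ UTR peaks (9.23%).

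**Figure D3:**
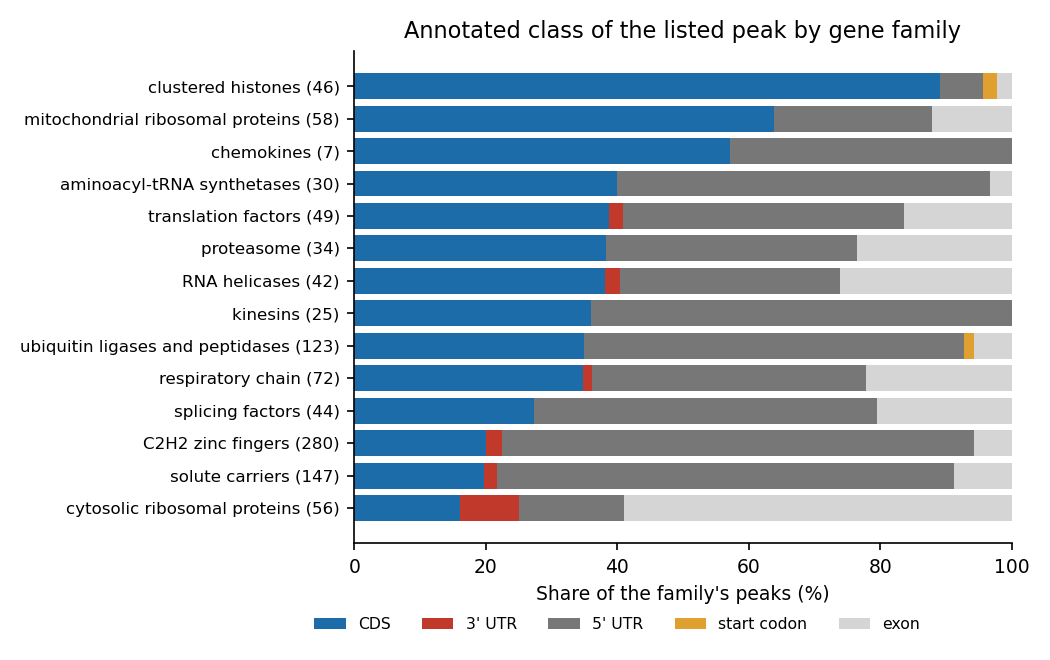
Share of each gene family's listed peaks (x axis, percent) in the CDS, 3′ UTR, 5′ UTR, start codon and exon classes, with the number of peaks after the family name. Clustered histones reach 89.1% in CDS and cytosolic ribosomal proteins 16.1%.

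Histone CDS peaks combined a position near the 5′ end with low enrichment. All 41 began within 250 nt of a start, yet their median enrichment was 3.51, against 14.4 for CDS peaks near a start. Most of them also ended within 1000 nt of the gene's annotated 3′ end, so their position does not part the ends. The distance was 44 nt in HIST1H2AE and 82 nt in HIST1H2AJ, but 10561 nt in HIST1H2BC. HIST1H4I had 25.3 and HIST3H2BB 14.4, the highest of the group. Clustered histone genes have near-identical copies, so reads could be shared among them and each value is uncertain. The 37 mitochondrial ribosomal protein peaks in CDS had a median of 12.7, with MRPS35 at 75 and MRPS2 at 58.6, and 30 of them began within 250 nt of a start. Synthetase CDS peaks had a median of 17.2, with GARS, the glycyl-tRNA synthetase, at 80.4 and IARS2, the mitochondrial isoleucyl enzyme, at 67.5.

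Other families showed single peaks of high enrichment in CDS. They included RNF7, a subunit of cullin ligases (106), ZNF511 (86.4), RNF187 (78.4), ZNF865 (61.6), PSME1, a subunit of the proteasome activator PA28 (48.0), and RPL26L1, a paralogue of a ribosomal protein (43.2). EIF3F of the initiation factor eIF3 had 42.2, SLC27A2 39.7, HNRNPUL1 37.7, NDUFAF2, an assembly factor of complex I, 35.1, SNRPD1 of the spliceosome 34.6 and NDUFAF5 32.3. Lower values were 28.7 in PSMG1, 20.9 in KIF1BP, which binds kinesins and is not one, 19.4 in DDX49, 18.5 in DDX52, 12.8 in RPL36AL and 8.44 in KIF17. The 3′ UTR peaks of the families reached 21.8 in SLC25A35, 15.4 in ZNF771, 13.4 in EIF4A1, 9.85 in DDX39B, 7.94 in ZNF653 and 4.52 in NDUFV3. They stood at 2.88 in SLC6A6, 2.68 in RPL41 and 2.5 in RPL37. Of these 3′ UTR peaks, those of EIF4A1 and DDX39B began within 250 nt of a RefSeq start of their own gene. The others named lay over 250 nt downstream.

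The comparison of the lines asks where m7G signal differs once METTL1 is reduced. The authors' deposited table gives a log2 m7G change with a p-value and FDR for each peak but not which line is the numerator, so it was read here as knockdown over control, and the opposite reading would exchange higher and lower throughout. In the authors' deposited table the median change was 0.01 for CDS peaks (interval -0.02 to 0.06), -0.13 for 3′ UTR peaks (-0.32 to 0.06) and 0.02 for 5′ UTR peaks, beside 0.00 over all peaks. Within CDS, that table gave a median of 0.09 (0.06 to 0.13) near a start and -0.17 (-0.22 to -0.08) over 250 nt downstream. The share of peaks below 0 was 49.0% in CDS and 54.9% in the 3′ UTR.

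By the FDR of the authors' deposited table, taken as called under 0.05, 246 CDS and 3′ UTR peaks had a changed m7G signal (8.26%), against 5.25% of all peaks. CDS held 231 of them (8.30%, exact interval 7.30 to 9.38) and the 3′ UTR 15 (7.69%, 4.37 to 12.4), while the 5′ UTR class had 180 (3.85%, 3.31 to 4.44). By direction in that table, 136 CDS peaks (4.89%) and 7 3′ UTR peaks (3.59%) were higher, against 3.07% of all peaks. In the authors' deposited table the peaks lower by the same FDR were 95 in CDS (3.41%) and 8 in the 3′ UTR (4.1%), against 2.18% of all. With an absolute log2 change of at least 1 also required of the authors' deposited table, 42 CDS peaks were higher and 44 lower, so the excess of higher CDS peaks lay in smaller changes. At an unadjusted p under 0.05 of the authors' deposited table the shares were 23.3% in CDS, 24.1% in the 3′ UTR and 13% in the 5′ UTR, against 16.1% of all peaks.

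The called CDS peaks differed by position in enrichment and direction. Near a start, the authors' deposited table called 101 of 1607 peaks (6.29%, 5.15 to 7.58), 74 higher and 27 lower, and the median enrichment of those 101 was 15. Over 250 nt downstream it called 115 of 1014 (11.3%, 9.45 to 13.5), 53 higher and 62 lower, with a median enrichment of 1.93. A further 15 called peaks began over 250 nt upstream. Called CDS peaks as a whole had a median enrichment of 4.04 against 10.2 for the others. In the 5′ UTR class these values were 17 and 14.9. By position, the authors' deposited table called 141 of 3697 5′ UTR peaks near a start and 14 of 359 over 250 nt downstream. Of the 15 called 3′ UTR peaks, 14 lay over 250 nt downstream of a start and 1 had no matched start.

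**Figure D4:**
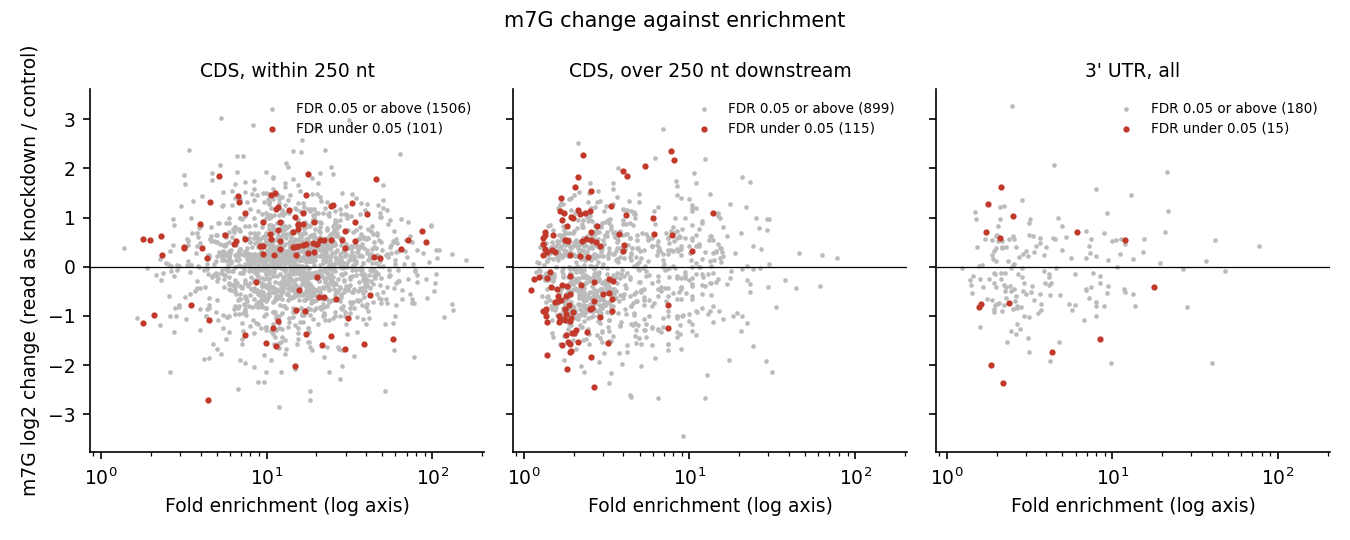
m7G log2 change from the authors' table, read as knockdown over control (y axis), against fold enrichment (x axis, log scale), for CDS peaks within 250 nt of the 5′ end, CDS peaks over 250 nt downstream and all 3′ UTR peaks, with 1 point per peak and those at an FDR under 0.05 in red. Red points in the middle panel gather at low enrichment, with a median of 1.93, and those in the left panel spread around a median of 15.

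The share called was higher at higher input in CDS and 5′ UTR peaks. With all peaks ordered by mean input FPKM and divided into 3 groups of equal size, parted at 3.92 and 12 FPKM, the authors' deposited table called 1.22%, 4.07% and 16.0% of CDS peaks from the lowest to the highest group. It called 0.670%, 2.49% and 8.53% of 5′ UTR peaks and 5.00%, 9.23% and 8.57% of 3′ UTR peaks in the same groups. Called CDS peaks had a median input of 26.5 FPKM against 8.67 FPKM for the others. Shares within 1 input group compare the classes over the same range of input, which was not matched further. The highest group has no upper limit, and CDS peaks near a start there ran from 12 to 1086 FPKM. In the highest group the authors' deposited table called 13.6% of CDS peaks near a start (11.0 to 16.5; 67 higher, 18 lower), 18.8% of those downstream (15.4 to 22.7; 39 higher, 49 lower) and 8.56% of 5′ UTR peaks near a start (7.02 to 10.3; 60 higher, 40 lower). The intervals of CDS and 5′ UTR peaks near a start did not overlap there. In the middle group the authors' deposited table called 1.74% of CDS peaks near a start (0.836 to 3.17; 5 higher, 5 lower), 7.12% of those downstream (4.66 to 10.3) and 2.61% of 5′ UTR peaks near a start (1.82 to 3.61), so near a start CDS was not above the 5′ UTR class there. In the lowest group the shares called in that table were 1.48%, 1.02% and 0.505%, with overlapping intervals.

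**Figure D5:**
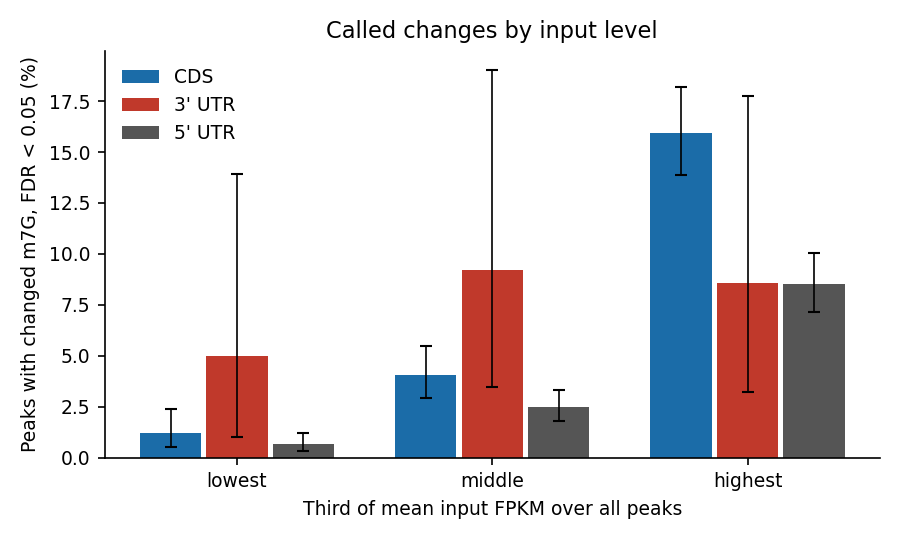
Share of peaks (y axis, percent) with an m7G change at the authors' FDR under 0.05, by class, in the lowest, middle and highest group of mean input FPKM over all peaks, with exact 95% intervals over peaks. CDS bars go from 1.22% to 16.0% and 5′ UTR bars from 0.670% to 8.53%.

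Of the called CDS peaks, the authors' deposited table gave the largest increases in LRP11 (2.36 on the log2 scale, FDR 0.00794), HOOK2, a linker of cargo to microtubules (2.28, FDR 0.000309), and SNUPN (2.17, FDR 2.8e-05). SNUPN encodes snurportin 1, which carries small nuclear RNPs into the nucleus by their methylated cap. The SNUPN peak lay at chr15:75617507-75624745 on the minus strand, in 4 blocks of 389 nt in all, 980 nt from the nearest start. SNUPN input was 6.20 FPKM in control and 2.96 FPKM in knockdown cells, 2.1-fold lower (1.67 to 2.63), while LRP11 had 17.7 and 18.3 FPKM and HOOK2 18.3 and 17.1 FPKM. In the same authors' deposited table FLAD1, the FAD synthase, had 2.05, CCDC9 1.95 and HLA-B, a class I antigen-presenting chain, 1.88. UBQLN4, a proteasome shuttle, and LAMTOR4, a Ragulator subunit, each had 1.84 there. HLA-B has close paralogues, so its reads are uncertain. Of these 8 peaks 6 lay over 250 nt downstream of a start, and their enrichments ran from 2.28 in HOOK2 to 17.9 in HLA-B.

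The largest decreases among called CDS peaks in the authors' deposited table were in TPMT, which methylates thiopurine drugs (-2.71, FDR 0.00646), ZFC3H1, which links nuclear RNA to the exosome (-2.44, FDR 4.3e-05), and RNF40, a ligase for histone H2B (-2.07, FDR 0.00148). The TPMT peak began 3 nt from a start and had an enrichment of 4.42, while those of ZFC3H1 and RNF40 lay 18845 and 4403 nt downstream with enrichments of 2.64 and 1.83. Their input levels were close in the lines: TPMT had 5.98 FPKM in control and 5.44 FPKM in knockdown cells, ZFC3H1 6.17 and 5.83 FPKM, and RNF40 46.4 and 51.3 FPKM. That table also listed NAAA, a lysosomal amidase (-2.01), GALNT2, which starts mucin-type O-glycans (-1.94), and CEP85, a centrosomal protein (-1.89). It listed ESF1, a nucleolar protein (-1.83), and MADD, an activator of Rab GTPases (-1.79), as the last of the 8. Enrichment was 26.8 in GALNT2 and 14.9 in NAAA but 2.55 or less in CEP85, ESF1 and MADD.

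Of the 15 called 3′ UTR peaks 14 are described. The authors' deposited table gave higher m7G in TTC9 (1.63), BCAR1, an adhesion scaffold (1.27), SEC14L1 (0.72), CLTB, clathrin light chain B (0.71), TRIR (0.59) and AL138752.2 (0.54). It gave lower m7G in FEM1B, a substrate receptor of cullin ligases (-2.37), MAGI3, a junction scaffold (-1.99), C21orf59 (-1.73), NIT1 (-1.46), RBM6, a splicing regulator (-0.81), SGTA, a co-chaperone (-0.76), CELF1, which binds GU-rich elements of 3′ UTRs (-0.74), and SENP3-EIF4A1 (-0.40). Enrichment was 1.57 to 2.37 in 9 of these 14 peaks. It was 4.30 in C21orf59, 6.15 in SEC14L1, 8.40 in NIT1, 11.9 in AL138752.2 and 17.9 in SENP3-EIF4A1, whose peak is the one beside the EIF4A1 start. The SENP3-EIF4A1 peak overlaps the peak listed for EIF4A1, which the authors' deposited table did not call (-0.55, FDR 0.137). Input in control and knockdown cells was low in SENP3-EIF4A1 (0.163 and 0.196 FPKM), AL138752.2 (0.480 and 1.39 FPKM) and C21orf59 (0.913 and 1.31 FPKM). The FEM1B peak was a single block of 181 nt at chr15:68295087-68295267, in a gene with 8.93 FPKM in control and 8.15 FPKM in knockdown input. CLTB and TRIR had the lowest FDRs of the 15 in the authors' deposited table (9.1e-05 and 8.5e-05) and high input, 70.4 and 72.6 FPKM for CLTB and 142 and 147 FPKM for TRIR.

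Histones were called in both directions. The authors' deposited table called 8 of the 41 histone CDS peaks, with HIST1H2AB (-0.99, FDR 2.3e-08) and HIST1H2BJ (-0.77) lower and HIST1H1B (0.63), HIST1H2AL, HIST1H4A, HIST1H2AG, HIST1H4B and HIST1H3B (0.25) higher. Input of these 8 genes lay between 108 and 539 FPKM in either line. All 8 were among the 38 histone CDS peaks in the highest input group, where the authors' deposited table called 13.6% of CDS peaks near a start, beside 8.30% of all CDS peaks and 5.25% of all peaks. Of the 12 synthetase CDS peaks none was called in the authors' deposited table, and 11 had a change above 0, from 0.02 in YARS2 to 1.58 in MARS2, while SARS had -0.02. Over all CDS peaks 8.30% were called and 49.0% were below 0 in that table, and a count of 0 in 12 is near that share called. Of these 12 peaks 11 began within 250 nt of a start, where 44.2% of all such CDS peaks were below 0. In the 5′ UTR class 9 of 17 synthetase peaks were above 0. Kinesin CDS peaks had a median change of -0.99 in the authors' deposited table over 9 peaks, none of them called, against 0.48 over 16 5′ UTR peaks, 2 of them called higher. With 5.25% of all peaks called, counts this small say nothing particular to the family.

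A list of 31 symbols covered genes that write, bind, remove or mature m7G and caps. It holds both names of RAMAC (FAM103A1), BUD23 (WBSCR22) and NCBP3 (C17orf85), so it has fewer genes than symbols. Of the symbols 23 had a peak, 10 in CDS, 9 in the 5′ UTR, 4 in the exon class and none in the 3′ UTR. The CDS members included the decapping activators DCP1A (enrichment 16.9) and DCP1B (29.8), the RNMT activator FAM103A1 (23.8), the snRNA export factor PHAX (11.9) and the decapping enzyme NUDT16 (13.7), all within 250 nt of a start. EIF4E3, a cap-binding relative of eIF4E, had 31.3, at a low input of 0.532 FPKM in control and 1.06 FPKM in knockdown cells. SNUPN (8.08), LARP1, which binds capped TOP mRNAs (2.02), NCBP3 (1.56) and TGS1, the trimethylguanosine synthase (1.49), lay further downstream, as did EIF4E3. SNUPN was the only one of the 23 called in the authors' deposited table, near the 5.25% of all peaks called. The 5′ UTR members were METTL1, CMTR1, DCP2, NCBP1, NUDT3, PCIF1, QKI, RNGTT and TRMT112, and the exon members were DXO, EIF4E, NCBP2 and WDR4, the partner of METTL1.

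At unadjusted p under 0.05 for both m7G and input in the authors' deposited table, 361 CDS peaks (13%) and 24 3′ UTR peaks (12.3%) differed, against 8.98% of all peaks. The directions were opposite in 247 of the 361 CDS peaks and 14 of the 24 3′ UTR peaks, and in 261 of 350 such 5′ UTR peaks. Spearman's rho between the m7G change and the input log2 fold change of that table was -0.16 over CDS, -0.09 over 3′ UTR and -0.12 over 5′ UTR peaks. Both values come from the same input libraries, so these directions are a description. With the m7G change read as control over knockdown, these opposite pairs would run the same way and each rho would change sign.

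The genes with CDS and 3′ UTR peaks rarely differed in input RNA by 2-fold. On the log2(FPKM + 1) scale, with a mean of at least 1 FPKM, 5 genes with a CDS peak were at least 2-fold higher in knockdown and 12 lower, of 2581 (0.659%). None of 165 genes with a 3′ UTR peak passed 2-fold, and over all genes with a peak the share was 0.988%. Smaller input differences were common by the authors' deposited input FDR, which rests on 1 library a line. At an FDR under 0.05 it called 1157 genes with a CDS peak (41.6%) and 74 with a 3′ UTR peak (38%). Over all genes with a peak it called 40.1%. In bulk RNA, fewer cells expressing a gene and less RNA in each cell cannot be told apart. The genes at least 2-fold lower included 4 chemokines with CDS peaks at the 5′ end. CXCL1, a neutrophil attractant, had 42.7 FPKM in control and 8.10 FPKM in knockdown input, 5.28-fold lower (4.33 to 6.47). CXCL2 had 30.5 and 9 FPKM, 3.39-fold lower (2.83 to 4.09), CXCL5 436 and 142 FPKM, 3.07-fold lower (2.96 to 3.18), and CCL20 4.56 and 0.705 FPKM, 6.47-fold lower (3.38 to 13.6). Their enrichments were 26.7, 23.8, 20.3 and 6.95. The m7G change in the authors' deposited table was 0.11 (FDR 0.676) for CXCL1, 0.05 for CXCL2, -0.13 for CCL20 and -0.21 (FDR 0.0447) for CXCL5, so of these 4 only CXCL5 was called. ZC3H12A, an RNase that degrades inflammatory mRNAs, had 38.4 and 14.5 FPKM, 2.65-fold lower (2.39 to 2.94), with an enrichment of 28.1 and a change of 1.08 (FDR 0.0661) in the authors' deposited table. Among the genes at least 2-fold higher, PALM3 had 1.93 FPKM in control and 7.81 FPKM in knockdown input, 4.06-fold higher (2.98 to 5.61).

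In the pair of further RNA-seq libraries, 138 genes with a CDS peak were at least 2-fold higher in S-CAFs-w13 than in DLD1-W13CM and 192 lower, of 2524 (13.1%), on the same scale and filter. For 3′ UTR peaks these were 8 and 10 of 161 (11.2%). Over the whole table of that pair the share was 17% and over the genes with any peak 12.9%. S-CAFs-w13 held CXCL1 at 0.869 FPKM and CXCL2 at 1.18 FPKM, while the levels in DLD1-W13CM were 33.6 and 32 FPKM.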

How the data were processed

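Input RNA and m7G IP were measured in 1 control and 1 METTL1 knockdown line, and RNA in 2 further libraries, S-CAFs-w13 and DLD1-W13CM (6 libraries, 1 per group). FPKM values of input RNA and of these libraries were deposited by the authors. The fold enrichment of each peak, a ratio of IP to input, its log2 m7G change, and scores that the headers give as log10 of the p-value and FDR were deposited by the authors, as were log2 fold changes and p-values of input RNA. The log10 scores were turned back into p-values and FDRs. HISAT2 2.1.0, SAMtools 1.10, featureCounts 1.6.3, HOMER 4.10.4, cutadapt 2.5 and DESeq2, and the builds hg38, GRCh38 and GRCm38, are listed without roles in the submitters' processing notes. The peak caller and the model behind the m7G change are not given in the sources used here. Peak coordinates were taken as GRCh38, since peak edges coincide with RefSeq starts of GRCh38.p14.

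Classes were taken as deposited. Medians carry 95% order-statistic intervals and shares exact (Clopper-Pearson) intervals over peaks, which share libraries and are not replicates. No test across libraries was made. Input changes are on the log2(FPKM + 1) scale, where change in low genes is understated, while folds are plain FPKM ratios. The smallest whole reads fitting both FPKM values of a gene (relative tolerance 2e-14, up to 100000 reads) were found for 9347 of 9348 genes of the knockdown table. They give intervals of counting error only, at their widest. The other RNA-seq libraries held at least 3647767 (DLD1-W13CM) and 3842634 (S-CAFs-w13) such reads. DLD1-W13CM is known only by its title, which names no co-culture.

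RefSeq starts were matched by symbol or synonym: 2295 CDS and 155 3′ UTR peaks had a transcript start, 461 and 34 only the gene's bound. No sequence of chromosome 8 and no genome-wide sequence was used. Peaks on chromosome 8 were kept, and those of GSR, BNIP3L and TGS1 were placed by the gene's bound, not by a transcript start. Named within each class were the 10 peaks of highest enrichment, the 8 largest called increases and decreases, the 5 widest, the cap list and the top 2 of each of 14 families; CXCL5, CCL20, ZC3H12A, PALM3, the other histones and synthetases, and the peaks beside a neighbour's start, were chosen after their values were seen. A called 3′ UTR peak that the naming rule selects is not reported here. The sequences were chosen from the most enriched peaks at a start with or without an ATG. Members, lists and the 250 nt limit were chosen with earlier results of these data known. Scripts ran in Python 3.11.15 with numpy 2.4.6, pandas 2.3.3, scipy 1.17.1 and matplotlib 3.10.9, and were tested on simulated data. Every per-sample column was used (0 left out). Alternatives covered input filters, block number, distance limits, thresholds, pseudocount and direction.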

Additional observations from a re-analysis of the deposited data

How the results depend on the processing

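No paired analysis was possible because each group held 1 library, and no library could be left out. Of 96 alternative values 45 moved by less than their interval, or by less than 1.5 times for counts, and 51 moved more; the cause was not tested. Median enrichment was 8.44 (CDS), 7.2 (CDS and 3′ UTR) and 11.95 (5′ UTR) in single-block peaks, and 3.11, 3.1 and 13.4 over 250 nt from a 5′ end in either direction. With at least 5 FPKM it was 2.65 (3′ UTR), 8.77 (CDS and 3′ UTR) and 16.4 (5′ UTR), and as the median over input groups 9.93 (CDS and 3′ UTR) and 16 (5′ UTR). Median genomic span was 893, 237, 755 and 887 nt for CDS, 3′ UTR, both together and 5′ UTR, and single-block width was 240 nt for CDS, both together and 5′ UTR. Within 100 nt of a start lay 51.3%, 48.1% and 64.3% of CDS, CDS and 3′ UTR, and 5′ UTR peaks, and within 500 nt 62.7%, 58.9% and 86.6%.

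Counts from the authors' deposited table at p under 0.05 were 337 higher and 312 lower (CDS), 16 and 31 (3′ UTR), 353 and 343 (together) and 337 and 270 (5′ UTR). At an FDR under 0.01 they were 70 and 47, 3 and 2, 73 and 49, and 50 and 33. At an FDR under 0.05 with an absolute log2 change of at least 1 they were 42 and 44, 3 and 4, 45 and 48, and 45 and 45, so the excess of higher over lower CDS peaks was absent there. Read as control over knockdown, the median change was 0.127 for 3′ UTR and -0.018 for 5′ UTR peaks. With at least 5 FPKM the median input log2 ratio of 5′ UTR genes was 0.0149. Use of transcript starts alone, chosen after seeing the data, gave 58.5% of CDS, 3.87% of 3′ UTR and 79.7% of 5′ UTR peaks within 250 nt.

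With 195 peaks, 3′ UTR shares have wide intervals, and few of its peaks lie near a start. Genes with peaks in several places are seen at the listed peak alone. IP depth was not analysed here.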
